A study of Gallus gallus with 6 samples.

Results

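The genes of distal chromosome 1 around C2CD3, the candidate gene of the talpid2 mutation, were compared between control and talpid2 chick embryos. Members were the rows of the deposited expression table from EED to the last listed gene of the chromosome, chr1:195039424-200849571 in the coordinates of the file, a stretch fixed by a round start position below EED. C2CD3 (ENSGALG00000017314) itself was left out and used as the reference point. This rule gave 66 genes of the 10337 in the table, of which 1489 lay on chromosome 1. The members covered 5.81 Mb, with 56 starting below and 10 above the start of C2CD3. They comprised 63 protein-coding genes, 2 small nucleolar RNAs and 1 microRNA. No expression value entered the rule.

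The talpid2 mutation is a recessive trait of the chicken with facial clefting and extra digits. RNA was sequenced from the frontonasal prominence (FNP), maxillary prominence (MXP) and mandibular prominence (MNP), the outgrowths that build the face, of control and talpid2 embryos at Hamburger-Hamilton stage 25. Prominences were harvested from 8 embryos of each genotype, and each genotype and prominence gave 1 library, 6 in all. The paper does not state how tissue of these embryos was combined for sequencing. The labels give the genotype as control or talpid2 alone, and the study's methods name 4 lines for its embryos: the inbred congenic line talpid2.003, its parent line UCD003, a commercial white leghorn line (CWLL), and that line carrying the mutation. Which of these lines gave the 6 libraries is not given in the sources used here. The study's methods also state that heterozygous carriers of talpid2 were mated for eggs. Whether the controls came from these matings, and their genotype at the locus, are likewise not given. With 1 library for each genotype and prominence, no difference within a prominence had a replicate check. The 3 prominences may come from the same embryos, so any test across them measures agreement between prominences and not between embryos.

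C2CD3 is a protein of the distal centriole that is needed for the primary cilium, the organelle through which cells receive Hedgehog signals. When a mutation is kept in a line by selection, the DNA on either side of it is inherited with it, so that neighbouring genes of mutants and controls can differ in sequence and in regulation. NUP98, which encodes a nucleoporin of the nuclear pore, and NEU3, which encodes a plasma membrane sialidase that trims gangliosides, were weighed beside C2CD3 as candidates in the mapped interval. After resequencing NUP98 and NEU3, the paper reports no probable causal variant and no change in their transcript size or expression level, without showing the data. The mapped interval is given in another assembly and was not placed on the coordinates of the file, so the 66 genes are linked by position and are not the mapped interval itself. The question addressed here was whether linked genes differed in the same way in the 3 prominences, and whether this varied with distance from C2CD3.

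The deposited values were log2 expression values from which the median of the gene over the 6 libraries had been subtracted. A value of 0 is therefore the middle of that gene's own 6 libraries, and values can be compared between libraries but not between genes. A log2 ratio below is the talpid2 value minus the control value of the same prominence, and 3 values in a row follow the order FNP, MXP and MNP. The 6 libraries carried the same run and lane number in the file, and their relative depth, derived from the size of 1 read in each, ranged from 0.949 to 1.20 of the middle depth. Reads could be recovered for 35 of the 66 members and for 40.5% of all genes.

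C2CD3 lay at chr1:200570510-200609588 on the minus strand. Its log2 value was 0.11, 0.31 and 0.07 in control tissue and -0.07, -0.10 and -0.08 in talpid2 tissue. All 3 talpid2 values were lower than all 3 control values. The recovered reads of C2CD3 were 267, 264 and 273 in control and 194, 198 and 206 in talpid2 libraries. Corrected for depth, the log2 ratios were -0.18 (95% counting interval -0.46 to 0.09), -0.41 (-0.68 to -0.13) and -0.16 (-0.43 to 0.11). The Audic-Claverie exact test of the paired libraries gave p = 0.167, 0.00241 and 0.251 in that order, and the genotype term of limma over the 3 prominences gave a mean log2 ratio of -0.25 ± 0.07 (SE) with an adjusted p of 0.297. These are totals for the gene and do not show the deletion in its coding sequence.

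NUP98 lay 0.971 Mb from C2CD3, at chr1:199599824-199643619. Its log2 value was 0.03, 0.11 and 0.08 in control and -0.18, -0.03 and -0.07 in talpid2 libraries, so the genotypes did not overlap. The log2 ratios of NUP98 were -0.21, -0.15 and -0.15, a mean of -0.17 ± 0.05 (SE), which is 0.889-fold, with an adjusted p of 0.293 in limma. NEU3 lay 0.081 Mb from C2CD3 on its other side, at chr1:200651566-200653895. Its log2 value was -0.02, -0.36 and -0.25 in control libraries and 0.15, 0.02 and 0.03 in talpid2 libraries, again without overlap but in the opposite direction. The log2 ratios of NEU3 were 0.17, 0.38 and 0.28, a mean of 0.28 ± 0.06 (SE), which is 1.21-fold, with an adjusted p of 0.268. Neither candidate passed the adjusted threshold of 0.05 in limma. None of the 10337 genes did, so this does not set the candidates apart from other genes. Their unadjusted p in limma was 0.0231 for NUP98 and 0.0117 for NEU3, and 14.9% of all genes had one of at most 0.05. The paper reports no change in the expression level of either gene, without showing the data or naming the tissue. The limma result cannot decide whether their level differed.

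**Figure D1:**
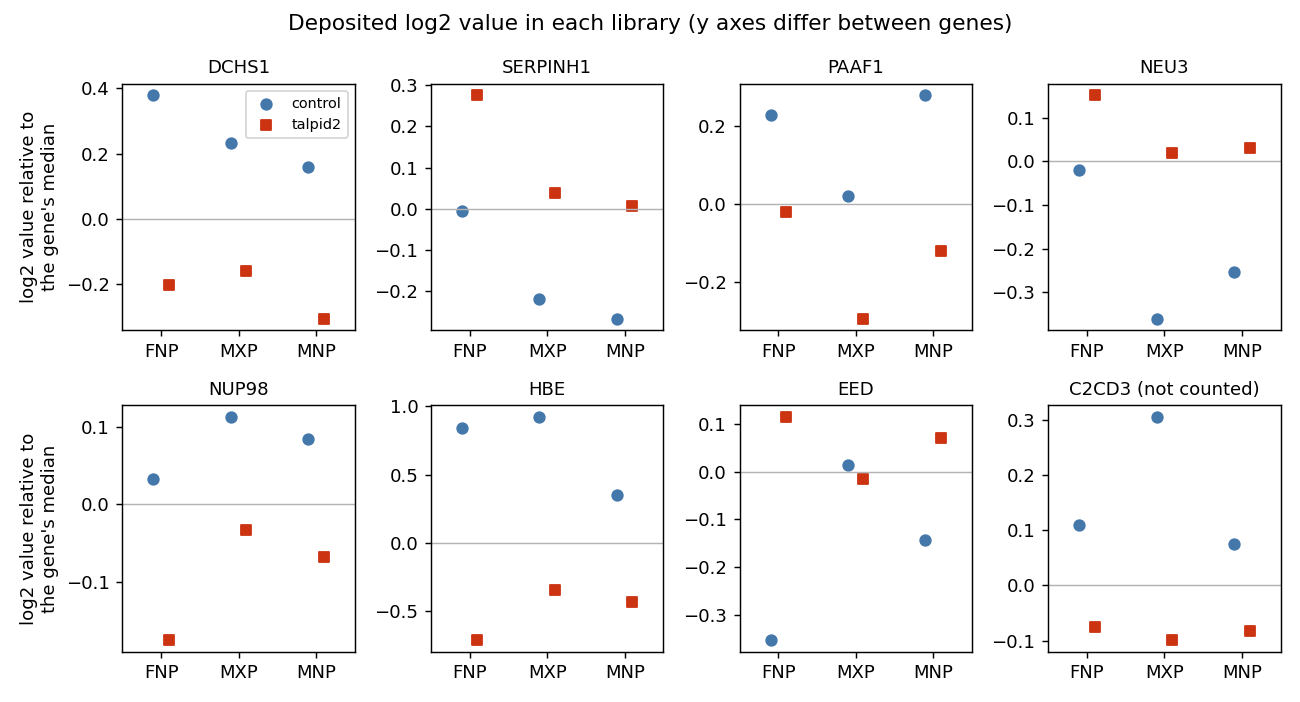
Deposited log2 value (y axis, relative to the gene's own median, with a different range for each gene) of 7 linked genes and C2CD3 in each of the 6 libraries, with prominences on the x axis, circles for control and squares for talpid2. Each point is 1 library. The genotypes do not overlap in any panel except that of EED, where the control MXP value of 0.01 lies above the talpid2 MXP value of -0.01.

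Over the 66 linked genes, 37 had the same sign in all 3 prominences, 14 of them higher and 23 lower in talpid2 tissue. This was 56.1% of the members, against 42.2% of all genes in the table and 39.8% of the other genes of chromosome 1. The 3 talpid2 values lay entirely above or entirely below the 3 control values for 19 members, 8 higher and 11 lower. These were 28.8% of the members, against 13.4% of all genes. These counts included genes of both directions.

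No linked gene was called by limma at an adjusted p of 0.05, where 0% of all genes were called. The smallest adjusted p of a member was 0.257, which was also the smallest of all genes. Members with differing unadjusted p in limma shared it, such as DCHS1 (0.00155) and FCHSD2 (0.00721), so it does not rank them. At an unadjusted p of 0.05, limma listed 18 of the 66 members, which was 27.3%, against 14.9% of all genes. Of these, 13 were lower in talpid2 tissue, where 8.36% of all genes were listed, and 5 were higher, where 6.56% of all genes were listed. The 13 lower members were HBE, HBB, Q90750, gga-mir-1600, AQP11, DCHS1, ENSGALG00000022694, PAAF1, CAPN5, FCHSD2, NUP98, ARHGEF17 and RNF169, and the 5 higher members were NEU3, SERPINH1, ENSGALG00000019033, MRPL48 and ARFIP2. Several of these genes are named because of their values. With GAPDH as the reference gene in each library, the members without overlap went from 19 of 66 to 9 of 66. The share of all genes without overlap went from 13.4% to 3.82%. The members that limma listed at an unadjusted p of 0.05 then went from 18 to 23, and the share of all genes from 14.9% to 16.2%.

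DCHS1, a large protocadherin that acts with FAT4 in planar cell polarity, had the smallest unadjusted p of the members and lay 1.36 Mb from C2CD3, at chr1:199211174-199254398. Its log2 value was 0.38, 0.23 and 0.16 in control and -0.20, -0.16 and -0.30 in talpid2 libraries. The lowest control value was above the highest talpid2 value by more than the range of the 3 libraries of either genotype. The log2 ratios of DCHS1 were -0.58, -0.39 and -0.46, a mean of -0.48 ± 0.06 (SE), or 0.718-fold, with an adjusted p of 0.257 in limma. The microRNA gga-mir-1600 was annotated on the same strand, with its start 1789 bases after the end of DCHS1. Its log2 ratios were -0.72, -0.47 and -0.34, a mean of -0.51 ± 0.09 (SE), and its adjusted p was also 0.257. The recovered numbers of gga-mir-1600 share a factor of 4, so its reads are uncertain by that factor, and with the smaller numbers the Audic-Claverie exact test gave p = 0.00689, 0.0666 and 0.169. Whether reads of the longer gene reached the microRNA interval was not tested.

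SERPINH1 encodes the collagen chaperone of the endoplasmic reticulum and lay 0.534 Mb from C2CD3, at chr1:200036710-200044180. Its log2 value was -0.01, -0.22 and -0.27 in control and 0.28, 0.04 and 0.01 in talpid2 libraries. The 3 log2 ratios of SERPINH1, 0.28, 0.26 and 0.28, were nearly equal. Their mean was 0.27 ± 0.04 (SE), or 1.21-fold, with an adjusted p of 0.257. P4HA3, an alpha subunit of the collagen prolyl 4-hydroxylase, lay 0.073 Mb from C2CD3 and had log2 ratios of -0.51, -0.15 and -0.01. The log2 values of P4HA3 were 0.05, 0.04 and 0.00 in control libraries and -0.46, -0.12 and 0.00 in talpid2 libraries, so its lower level rested on the FNP.

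PAAF1, a chaperone of the proteasome's regulatory particle, lay 0.046 Mb from C2CD3, at chr1:200524228-200539146. Its recovered reads were 254, 190 and 277 in control and 177, 152 and 176 in talpid2 libraries. The log2 ratios were -0.25 (95% counting interval -0.53 to 0.04), -0.31 (-0.63 to 0.00) and -0.40 (-0.68 to -0.12). Every talpid2 value of PAAF1 was below every control value, the mean log2 ratio was -0.32 ± 0.05 (SE) and the adjusted p was 0.257. FCHSD2, a regulator of actin at sites of endocytosis, had log2 ratios that differed little between prominences, at -0.22, -0.24 and -0.23, with an adjusted p of 0.257. Its genotypes did overlap, since FCHSD2 also varied between prominences, from -0.05 to 0.27 in control tissue and from -0.29 to 0.05 in talpid2 tissue.

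The other genes nearest to C2CD3 did not share one direction. MRPL48, a subunit of the mitochondrial ribosome, was higher in each prominence, with log2 ratios of 0.12, 0.17 and 0.20 and no overlap between genotypes. RNF169, which binds ubiquitin at DNA breaks, was lower, at -0.12, -0.17 and -0.15, and PLEKHB1 was lower, at -0.17, -0.05 and -0.01. PPME1, the methylesterase of protein phosphatase 2A, had the closest start at 0.041 Mb and log2 ratios of 0.06, -0.07 and 0.06. CHCHD8, an assembly factor of cytochrome c oxidase, had log2 ratios of -0.13, 0.69 and 0.09 on recovered reads of 21.9 to 49 for each library. SPCS2, of the signal peptidase complex, and RAB6A, a Golgi GTPase, likewise differed in sign between prominences, with log2 ratios from -0.11 to 0.18 and from -0.10 to 0.16. Thus, of the 10 nearest genes, 6 had the same sign in all 3 prominences, 4 lower and 2 higher, against 42.2% of all genes with the same sign.

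Farthest along the chromosome above C2CD3 lay ENSGALG00000022694 and ENSGALG00000022695, which are annotated on opposite strands and share 752 bases. Their log2 ratios were -0.46, -0.55 and -0.24 for ENSGALG00000022694 and -0.29, -0.09 and -0.91 for ENSGALG00000022695. Both were lower in talpid2 tissue without overlap, but strand was not stated for the counting, so their reads cannot be told apart.

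**Figure D2:**
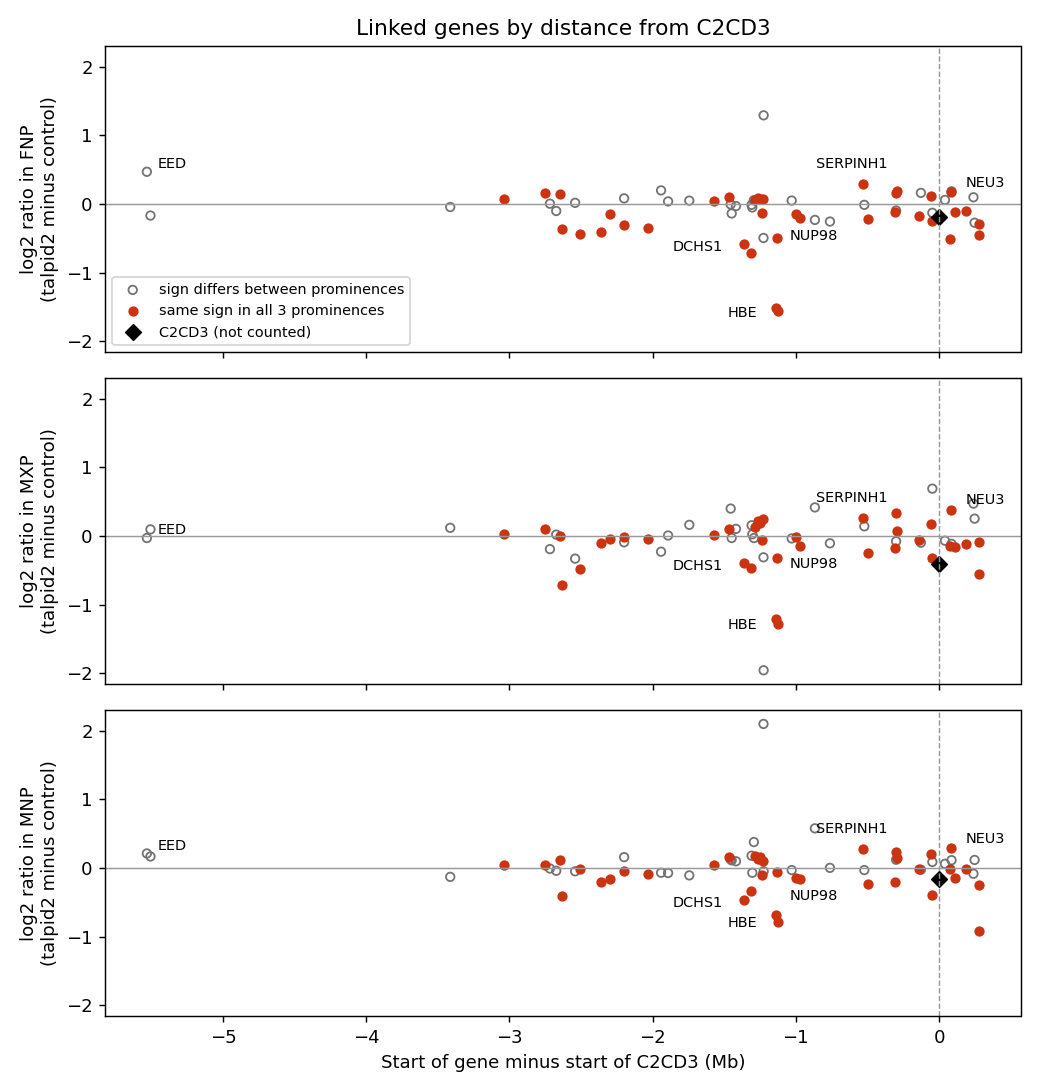
Log2 ratio of talpid2 to control (y axis) of the 66 linked genes in the FNP, MXP and MNP against the start of each gene minus the start of C2CD3 in Mb (x axis). Filled circles are the 37 genes with the same sign in all 3 prominences, open circles the others and the diamond C2CD3. Most ratios lie between -0.5 and 0.5 at every distance. The lowest filled points of the FNP and MXP, near 1.1 Mb below C2CD3, are HBE and HBB, and the lowest filled point of the MNP is ENSGALG00000022695 at -0.91, above C2CD3.

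HBE and HBB, of the region's beta-type globin cluster, had the lowest mean log2 ratios of the members. HBE, an embryonic beta-type globin at chr1:199444794-199446420, had log2 values of 0.84, 0.93 and 0.35 in control and -0.72, -0.35 and -0.43 in talpid2 libraries. The log2 ratios of HBE were -1.56, -1.28 and -0.78, a mean of -1.21 ± 0.17 (SE), or 0.433-fold, and those of HBB were -1.51, -1.20 and -0.69, or 0.455-fold on average. Both had an adjusted p of 0.257 in limma. Q90750, a beta-H globin fragment, lay inside HBB on the same strand, with 1226 shared bases, and its log2 ratios were -0.50, -0.32 and -0.05. The talpid2 and control values did not overlap for any of the 3 entries.

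Red cell genes on other chromosomes had differences of the same kind. The alpha-type globins HBZ, HBA1 and HBAD of chromosome 14 had mean log2 ratios of -1.22, -1.08 and -1.003, and EPB42, a protein of the red cell membrane, had -0.94. Of the 15 listed erythroid markers 7 were measured, HBE included, and 6 of these 7 were lower in talpid2 tissue without overlap, TAL1 being the exception at -0.13, 0.40 and 0.17. The mean log2 value of the 6 erythroid markers outside the region ranged from 0.26 to 0.50 in control libraries and from -0.72 to -0.23 in talpid2 libraries. In bulk tissue, fewer cells of a type and less RNA per cell cannot be told apart, and the part of blood content in the values of the other members was not tested. Without the 3 globin entries, 34 of 63 members had the same sign in all 3 prominences, 16 did not overlap and 15 were listed by limma at an unadjusted p of 0.05. These were 54%, 25.4% and 23.8%, against 42.2%, 13.4% and 14.9% of all genes.

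The mean values of markers of other tissues overlapped between the genotypes, but their ranges also hold the differences between prominences. The mean log2 value ranged from -0.06 to 0.11 in control and from -0.11 to 0.19 in talpid2 libraries for 6 epithelial markers, from -0.48 to 0.29 and from -0.40 to 0.12 for 5 neural markers, and from -0.25 to 1.58 and from -0.12 to 1.81 for 5 facial mesenchyme markers. The 4 skeletal muscle markers ranged from -1.33 to 3.58 and from -0.89 to 3.19, with the highest value in the MNP of either genotype. All 6 epithelial and all 4 muscle markers were lower in the talpid2 MNP, while in the FNP 4 epithelial and 2 muscle markers were higher. None of the 4 muscle markers lay within the limits set by the authors in all 6 libraries. The 2 that were higher in the FNP, MYOD1 and TNNT3, lay within them in 2 libraries each, so their direction there is uncertain. At an unadjusted p of 0.05 limma listed 2 of 5 mesenchyme markers, or 40%, against 14.9% of all genes. These were MSX1 (0.18, 0.53 and 0.72) and DLX5 (0.30, 0.10 and 0.21), and the others differed in sign between prominences.

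The members were next ordered by distance and divided into 3 sets of 22. The nearest 22 started 0.0412 to 0.534 Mb from C2CD3, the middle 22 from 0.762 to 1.45 Mb, and the farthest 22 from 1.45 to 5.53 Mb. The same sign in all 3 prominences was seen for 14 of the nearest, 12 of the middle and 11 of the farthest genes, against 42.2% of all genes. The genotypes did not overlap for 8, 9 and 2 genes in that order. At an unadjusted p of 0.05 limma listed 9, 7 and 2 genes, against 14.9% of all genes. The nearest 22 thus had 36.4% of genes without overlap and the farthest 22 had 9.09%, below the 13.4% of all genes. The middle 22 hold the 3 globin entries. Without them 9 of 19 genes had the same sign in all 3 prominences, 6 did not overlap and 4 were listed.

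The size of the difference fell from the nearest to the farthest set. The median absolute mean log2 ratio was 0.16 in the nearest, 0.14 in the middle and 0.09 in the farthest 22 genes, and 0.09 over all genes. The signs stayed mixed at every distance, with 5 of the nearest genes higher and 9 lower in all 3 prominences, 4 and 8 in the middle set and 5 and 6 in the farthest set. Among the 10 genes above C2CD3, 1 was higher and 5 were lower in all 3 prominences, which was 60%, against 42.2% of all genes with the same sign. Among the 18 genes from NUP98 to NEU3, 11 had the same sign in all 3 prominences, 7 did not overlap and 8 were listed by limma at an unadjusted p of 0.05, which was 61.1%, 38.9% and 44.4%, against 42.2%, 13.4% and 14.9% of all genes.

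**Figure D3:**
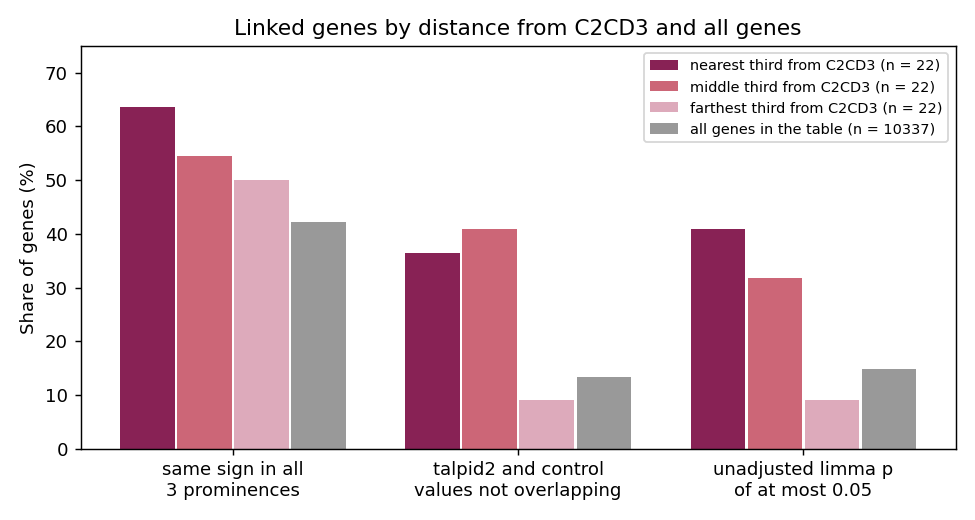
Share of genes in percent (y axis, from 0) with the same sign in all 3 prominences, with no overlap between talpid2 and control values, and with an unadjusted limma p of at most 0.05, for the 22 linked genes nearest to, intermediate to and farthest from C2CD3 and for all 10337 genes. The farthest set lies below the bar of all genes in the last 2 measures, at 9.09% in each.

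The region was then set beside the other listed genes, cut along each chromosome into 139 full windows of 66 consecutive genes. Genes left over at the end of a chromosome, and chromosomes with fewer than 66 such genes, were in no window. On chromosome 1 the last window ended at 190100614, so the listed genes between it and the region were left out. No other window had as many genes with the same sign in all 3 prominences as the 37 of the linked region, the windows ranging from 17 to 36 with a median of 27. For genes without overlap, 1 window equalled the 19 of the linked region and none exceeded it, with a range of 3 to 19 and a median of 8. For genes at an unadjusted limma p of 0.05, 1 window, on chromosome 8, equalled the 18 of the linked region and none exceeded it, with a range of 4 to 18 and a median of 10. The median absolute mean log2 ratio of the region, 0.13, was exceeded in 2 windows. All 3 globin entries were among the 37, 19 and 18 genes. Without them the counts of the region were 34, 16 and 15 of 63 genes, or 54%, 25.4% and 23.8%. The highest windows, with 36, 19 and 18 of 66 genes, then had the larger share in each count. The window medians, 27, 8 and 10 of 66 genes, remained a smaller share than that of the region. Entries were left out of the region alone, and the windows kept all their genes. The highest windows also had the larger share when the region was started at a lower position, which gave 41, 20 and 20 of 80 genes. Neighbouring genes are not independent of each other, and these ranks are given as a description.

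**Figure D4:**
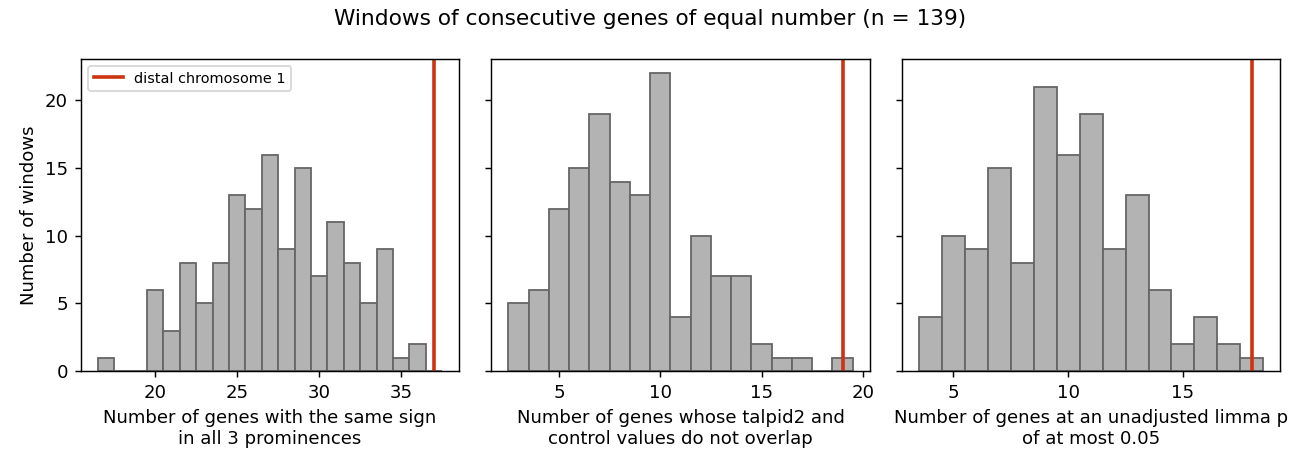
Number of windows (y axis) against the number of genes per window (x axis) with the same sign in all 3 prominences, without overlap between genotypes, and at an unadjusted limma p of at most 0.05, for 139 windows of 66 consecutive genes. The red line marks the linked region, at 37, 19 and 18 genes, to the right of or level with the highest window in each panel. These counts include the 3 globin entries, without which they are 34, 16 and 15 of 63 genes.

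A shared direction of the whole region was not seen. The median log2 ratio of the 66 genes was -0.05, -0.03 and -0.02, and over all genes it was 0.00 in each prominence. In the FNP 28 members were higher and 38 lower, with the same numbers in the MXP, and in the MNP 30 were higher and 36 lower. Of the 139 windows, 16, 19 and 45 had a lower median than the region in the FNP, MXP and MNP. Across the 66 members, the Pearson correlation of the log2 ratios was 0.273 between FNP and MXP, 0.321 between FNP and MNP and 0.345 between MXP and MNP, against 0.181, 0.205 and 0.227 over all genes. These coefficients turned on a few entries. Without the 3 globin entries they were -0.136, 0.106 and 0.195, over the 63 protein-coding members 0.743, 0.679 and 0.702, and over the 60 protein-coding members without globins 0.452, 0.521 and 0.561. Genes are not independent replicates.

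The SNORD35 entries, both small nucleolar RNAs, had the widest single ratios on few reads. The first entry, SNORD35-a, had 5.72, 4.68 and 2.6 recovered reads in control and 3.36, 3.76 and 9.34 in talpid2 libraries. The second, SNORD35-b, had 4.02, 13.6 and 13.8 in control and 8.14, 3.5 and 11.2 in talpid2 libraries. Reads that lay partly on a gene count by their bases, hence the decimals. The log2 ratio of SNORD35-a in the MNP was 2.10 (95% counting interval 0.02 to 4.84), and that of SNORD35-b was 1.29 in the FNP (-0.60 to 3.46) and -1.96 in the MXP (-4.18 to -0.20). A log2 ratio of at least 1 in either direction was reached by 3 members (FNP), 3 (MXP) and 1 (MNP), all of them SNORD35 or globin entries. Over all genes this size was reached by 1.86%, 1.72% and 1.54%.

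Among the 35 members with recovered reads, the Audic-Claverie exact test at p of 0.05 without correction listed 5 in the FNP, where it listed 19.7% of all genes with recovered reads, 6 in the MXP (15.8%) and 6 in the MNP (16.7%). The test compares 2 libraries and not the genotypes. The shares of these 35 members were 14.3%, 17.1% and 17.1%, close to those of all genes with recovered reads. The 31 members without recovered reads were not tested, among them DCHS1, SERPINH1, NUP98, NEU3, HBE and HBB. The shares therefore do not describe the whole region. In the same direction in all 3 prominences it listed 1 member, gga-mir-1600, against 1.42% of all genes, and with the smaller read numbers of this gene it listed none. In the FNP the listed genes were EED, CAPN5, ENSGALG00000000759, gga-mir-1600 and GDPD5, and in the MXP they were PAK1, gga-mir-1600, SNORD35-b, PAAF1, KCNE3 and ENSGALG00000022694. In the MNP they were EED, gga-mir-1600, MAP6, FCHSD2, PAAF1 and ENSGALG00000022695. After Benjamini-Hochberg adjustment over all genes with recovered reads, the FNP list held 2 members, EED and gga-mir-1600, the MXP list 1, gga-mir-1600, and the MNP list 1, ENSGALG00000022695. These were 2, 1 and 1 of 35 members, against 334, 184 and 204 of all 4151 genes tested. With the smaller read numbers, gga-mir-1600 left the unadjusted lists of the MXP and MNP, and its adjusted p in the exact test became 0.0802, 0.369 and 0.545, so that EED and ENSGALG00000022695 were the adjusted calls and the MXP had none.

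EED, a core subunit of Polycomb repressive complex 2, was the member farthest from C2CD3, at 5.53 Mb. Its recovered reads were 465, 519 and 566 in control and 533, 506 and 550 in talpid2 libraries. The depth-corrected log2 ratio of EED was 0.47 (95% counting interval 0.29 to 0.65), -0.03 (-0.21 to 0.15) and 0.21 (0.04 to 0.38). The ratio in the FNP exceeded that in the MXP by 0.50 on the log2 scale, with an adjusted p of 0.01 in an exact conditional test of equal ratios. This was the only one of 105 comparisons between prominences in the members to pass, where 2.09% of 12453 comparisons over all genes passed. MAP6, which stabilises microtubules, had log2 ratios of -0.23, 0.42 and 0.58, but the difference of the FNP from the MNP had an adjusted p of 0.171. PAK1, a kinase that acts on the actin cytoskeleton, had log2 ratios of -0.33 (-0.59 to -0.07) in the MXP and 0.02 (-0.24 to 0.27) in the FNP, and this difference had an adjusted p of 0.513.

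**Figure D5:**
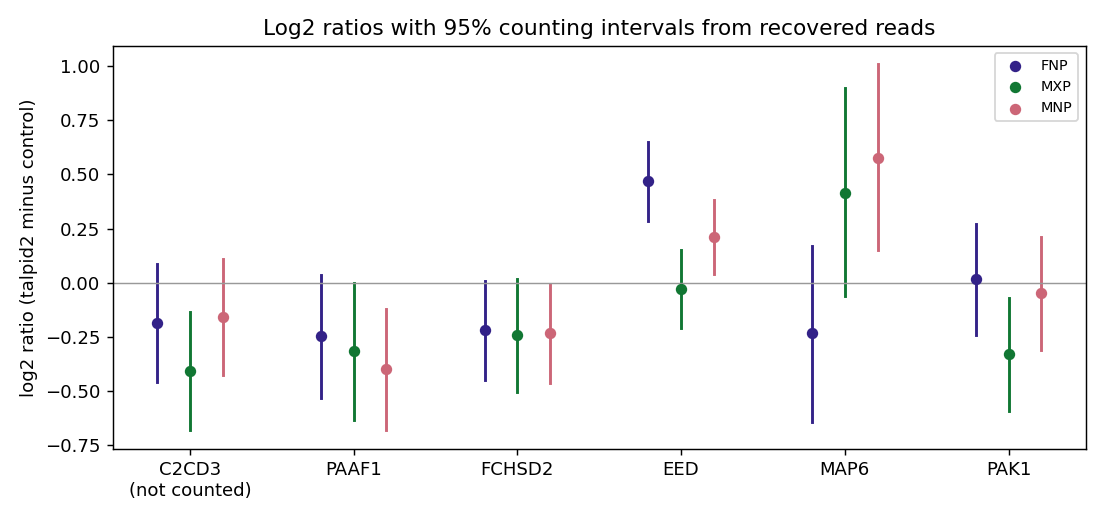
Log2 ratio of talpid2 to control (y axis) with 95% counting intervals (lines) for C2CD3 and 5 linked genes (x axis) in the FNP, MXP and MNP. The intervals cover counting error between 2 libraries and no difference between embryos. EED in the FNP lies at 0.47 with an interval above that of its MXP value, and the 3 intervals of FCHSD2 and of PAAF1 overlap within each gene.

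Genes that act with the candidates were taken from fixed lists. In the nuclear pore list 22 of 28 genes were measured, none passed the adjusted threshold in limma, and at an unadjusted p of 0.05 limma listed 2 lower genes, NUP98 and NUP50, and no higher gene. These were 9.09% of the list, against 14.9% of all genes. NUP50, a nuclear pore protein that also lies on chromosome 1 but outside the linked region, had log2 ratios of -0.16, -0.12 and -0.11. The median log2 ratio of the list was 0.02, -0.02 and 0.00.

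In the sialic acid list 15 of 19 genes were measured and none passed the adjusted threshold. At an unadjusted p of 0.05 limma listed NEU3 as higher and ST8SIA1, a ganglioside sialyltransferase, as lower, the latter with log2 ratios of -0.28, -0.29 and -0.06. These were 13.3% of the list, near the 14.9% of all genes. The collagen folding list held 21 names, some of them aliases of the same gene, and of the 15 genes measured none passed. At an unadjusted p of 0.05 limma listed 2 higher genes, SERPINH1 and P3H2, a prolyl 3-hydroxylase with log2 ratios of 0.38, 0.52 and 0.25. This was again 13.3% of the list, near the share of all genes. The subunits P4HA1, P4HA2 and P4HB of the prolyl 4-hydroxylase had mean log2 ratios of 0.00, 0.00 and -0.09, against -0.22 for P4HA3. By prominence, P4HA1 had -0.15, 0.06 and 0.08, P4HA2 had 0.02, -0.03 and 0.00, and P4HB had -0.14, -0.09 and -0.04. P4HA1 and P4HB, like P4HA3, were thus lowest in the FNP. In the FNP 8 of the 15 genes were higher and 7 lower.

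At the edge set by the rule, the members just inside were EED and C11orf73, with mean log2 ratios of 0.22 and 0.03, and the genes just outside were PICALM and SYTL2, with 0.01 and 0.14. Between C11orf73 and TENM4, which encodes a teneurin receptor, 2.08 Mb held no listed gene, so that the members form a pair at the edge and a cluster nearer to C2CD3. WNT11, a Wnt ligand 1.74 Mb from C2CD3, had log2 ratios of 0.05, 0.16 and -0.11.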

How the data were processed

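Facial prominences of control and talpid2 embryos were sequenced on an Illumina HiSeq 2000 after TruSeq and Nugen Ovation processing, and the authors analysed the reads in GeneSpring 12.5 with a chick genome from Ensembl whose assembly is not named. The deposited values are log2 expression values, set to a floor of 1 before the log and centred by the authors on each gene's median. The file also counts, for each gene, the libraries that fell between limits set by the authors on a scale that is not given.

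Members and gene lists were chosen with earlier results of these data known. Genes named were NUP98, NEU3 and C2CD3, the 10 nearest, the 10 with the largest mean log2 ratio among those with 1 sign within limits in all 6 libraries, any called gene, globins and the genes at the edge. Names came from the file or RefSeq (assembly GRCg7b, names only, 35 of 44 members with an Entrez ID matched). Where both differed (RNF121, ARHGEF17, HBB), the file's was kept. Not every member is reported by name here.

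limma 3.58.1 (R 4.3.3) fitted genotype and prominence to all 10337 genes, with 2 residual degrees of freedom and Benjamini-Hochberg adjustment over all genes. The fit and the read tests were tested on simulated data. Reads were recovered as the smallest whole numbers of bases, of 50-base reads up to 600 reads, that gave the 6 values within a relative tolerance of 7e-07, or 4e-07 for low values, for 4188 genes. With wrong steps 0.35% of 2000 genes were solved. A factor common to the 6 numbers of a gene cannot be told from the file. The Audic-Claverie test, 2-sided, followed the authors' methods. Exact (Clopper-Pearson) intervals and this test cover counting error only. The limma fit and the read test were each also run under a part of the alternatives of the closing section. The test of equal ratios was rerun with other scalings and is reported for EED alone. Python 3.11.15 ran the other steps.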

Additional observations from a re-analysis of the deposited data

Results flagged for a closer look

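For EED, the log2 ratio of talpid2 to control in the FNP exceeded that in the MXP by 0.4981, and an exact conditional test of equal ratios on recovered reads gave an adjusted p of 0.01 over 12453 comparisons. The FNP, MXP and MNP ratios were 0.47, -0.03 and 0.21, from 1 library for each genotype and prominence. With GAPDH as the reference gene the difference was 0.62 (adjusted p = 0.000222 in the exact test), and with each library centred on genes outside chromosome 1 it was 0.50 (adjusted p = 0.00969).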

How the results depend on the processing

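The count of linked genes at an adjusted p of 0.05 in limma was 0 in the fit reported. The count was also 0 in each of the 12 alternatives of this fit, 1 of which set the threshold at 0.1. Over all genes the count at an adjusted p of 0.05 was 0 in each of the fits run on the whole table. At an unadjusted p of 0.05 limma listed 18 of 66 linked genes (1542 of all genes), and 12 without the prominence term (669 of all genes). It listed 17 with a robust prior (1528 of all genes) and 23 with GAPDH as the reference gene (1675 of all genes). When any 1 prominence was left out it listed 12 (928 to 1186 of all genes). Within 1 Mb of C2CD3, 10 of 26 linked genes were listed, 16 had the same sign in all 3 prominences and 9 did not overlap. Over all genes these limits were met by 14.9%, 42.2% and 13.4%. With GAPDH as the reference gene 9 of 66 did not overlap (3.82% of all genes). The median log2 ratio of linked genes was then -0.14 in the MXP and -0.10 in the MNP, where that of all genes was -0.12 and -0.08. The FNP median was -0.0131 for the 61 genes that all 6 libraries held within limits, -0.0311 without globin genes and -0.11 within 1 Mb of C2CD3, where the MXP median was -0.0728. A threshold of 0.5 in place of 1 on the log2 scale gave 6, 6 and 5 linked genes in the FNP, MXP and MNP (812, 735 and 645 of all genes). Adjustment of the read test left 2, 1 and 1 of 35 members, against 334, 184 and 204 of all 4151 genes tested. With bases divided by their common factor it left 1, 0 and 1 members. The reads of members with few reads (SNORD35, AQP11, CHCHD8) limit what their ratios can show.

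Of 28 genes whose mean log2 ratio was recomputed, 7 changed sign somewhere, all with differing signs between prominences. With GAPDH as the reference gene the mean log2 ratio was -0.0442 for PPME1, -0.0002 for SPCS2, -0.0483 for RAB6A, -0.0294 for C11orf73 and -0.0545 for PICALM. When 1 prominence was left out, it ranged from -0.0052 to 0.0598 for PPME1, -0.0199 to 0.3893 for CHCHD8, -0.0003 to 0.1489 for SPCS2, -0.0612 to 0.0681 for RAB6A, -0.0365 to 0.1322 for C11orf73, -0.1053 to 0.3426 for SYTL2 and -0.0006 to 0.0163 for PICALM. Starting the region at a lower position gave 80 genes. Of these, 41 had the same sign in all 3 prominences, 20 did not overlap and limma listed 20 at an unadjusted p of 0.05. The region as reported had 37, 19 and 18 of 66 genes, a larger share in each count. The highest windows, with 36, 19 and 18 of 66 genes, also had a larger share than the 80 genes in each count. With 1 entry kept of each overlapping set, the counts were 35, 17 and 17 of 62 genes. The alternatives for the counts of unadjusted p and of overlap, and those for single genes, were chosen after seeing the data.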
